A study of Mus musculus with 8 samples.

Results

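The genes described here encode ligands and regulators of the TGF-β superfamily: Tgfb1, Tgfb2 and Tgfb3 (the TGF-β isoforms), Inhba, Inhbb, Inhbc and Inhbe (the activin β subunits), Bmp2 (bone morphogenetic protein 2), Fst (follistatin, which binds activins) and Smad7 (an inhibitory Smad). They were picked by symbol, and all 10 were found among the 54532 genes of the deposited liver table. The 8 livers came from 4 METTL3-HKD and 4 METTL3-Flox mice, all exposed to 1 h of liver ischemia followed by 6 h of reperfusion. METTL3-HKD mice carry a floxed Mettl3 allele and iCre driven by the albumin promoter, which is active in hepatocytes. The study's methods give their genotype as METTL3 flox/-; Alb-iCre, and its results call them heterozygous mice with reduced METTL3. METTL3-Flox mice are METTL3 flox/flox littermates, for which no iCre is named. The age and sex of the sequenced mice and the lobe sampled are not given in the sources used here. No unoperated livers were analysed here, so every value describes an injured liver.

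TGF-β and activin ligands are secreted dimers that signal through type I and type II serine/threonine kinase receptors to Smad transcription factors. TGF-β is held in a latent complex until it is activated, follistatin captures activins outside the cell, and Smad7 blocks the receptor inside the cell and is itself induced by the pathway. In liver, Inhbc and Inhbe are transcribed mainly in hepatocytes. Activin A (made from Inhba) and TGF-β1 are known to restrain hepatocyte proliferation, whereas follistatin relieves the restraint by activin. Bmp2 in liver comes largely from sinusoidal endothelial cells and takes part in the control of iron.

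Of the 10 genes, 6 had a promoter sequence in the RefSeq table used here (GRCm38.p6). Those of Inhba, Inhbb and Inhbc are shown because the balance between these genes is described in detail. The 250 bases before the start are given 5′ to 3′ on the gene's strand, with CG dinucleotides in capitals.
Inhba, chr13:16011601-16011850, plus strand: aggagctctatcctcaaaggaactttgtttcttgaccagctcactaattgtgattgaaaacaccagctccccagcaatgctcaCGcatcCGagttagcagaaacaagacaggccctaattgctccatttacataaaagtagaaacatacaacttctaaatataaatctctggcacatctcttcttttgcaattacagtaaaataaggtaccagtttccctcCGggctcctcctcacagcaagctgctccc
Inhbb, chr1:119422249-119422498, minus strand: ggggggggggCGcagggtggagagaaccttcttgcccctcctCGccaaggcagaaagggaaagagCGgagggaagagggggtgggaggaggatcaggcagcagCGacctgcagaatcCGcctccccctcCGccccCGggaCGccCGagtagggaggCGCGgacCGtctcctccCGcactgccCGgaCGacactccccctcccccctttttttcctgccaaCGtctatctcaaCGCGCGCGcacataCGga
Inhbc, chr10:127370549-127370798, minus strand: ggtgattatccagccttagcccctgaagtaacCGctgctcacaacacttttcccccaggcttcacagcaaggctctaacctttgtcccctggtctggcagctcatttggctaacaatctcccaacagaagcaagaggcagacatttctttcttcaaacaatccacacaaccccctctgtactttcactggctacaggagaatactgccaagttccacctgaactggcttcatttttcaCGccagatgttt
The Inhbb promoter held 21 CG dinucleotides and 68% G or C. The Inhba and Inhbc promoters held 3 and 2 CG dinucleotides and 43.2% and 48.8% G or C, against medians of 6 and 52.4% over 32851 promoters. None of the 6 windows held the AP-1 site TGANTCA (6.75% of all promoters), the CRE site TGACGTCA (1.55%) or the Smad palindrome GTCTAGAC (0.167%) on either strand. The ATF4 composite site TGATGNAA was found in Inhbe only, on the opposite strand 181 bases before the RefSeq start, and in 3.45% of all promoters. It is in capitals in these 30 bases, which the longer annotated transcript of Inhbe includes.
Inhbe, chr10:127352011-127352040, minus strand: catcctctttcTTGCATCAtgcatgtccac

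The authors deposited FPKM, a level per gene length and library size. The values multiplied by gene length gave whole reads in every liver, with 15861245 to 18434488 reads on genes per liver. Hepatocyte markers were high in every liver, with a summed level of 22121 to 33198 FPKM over 6 genes, none of which passed the test between groups. Alb made up most of that sum, with a log2 fold change of −0.03, and the other 5 markers stood at −0.36 to −0.79 on the log2 scale, the same direction as Inhbc and Inhbe. Their part in the levels of these genes was not tested. Whole-gene Mettl3, which does not resolve the floxed exon, was at 1.3 ± 0.18 FPKM in METTL3-HKD and at 1.5 ± 0.28 FPKM in METTL3-Flox mice (SD, n = 4 each; log2 fold change −0.16; limma, adjusted p = 0.556), with overlapping groups, so the genotype labels could not be checked by it. All 6 neutrophil markers rose in METTL3-HKD mice (limma), although Ly6g, at 0 to 2 reads per METTL3-Flox liver, entered the test only through METTL3-HKD livers. They had a summed level of 327 to 1595 FPKM against 12.6 to 43.8 FPKM, and METTL3-HKD liver 1 had the highest sum. Of 5 Kupffer cell markers, 4 fell (limma), with sums of 59.1 to 132 FPKM against 134 to 336 FPKM. In bulk liver, fewer cells of a type and less RNA per cell cannot be told apart.

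In METTL3-HKD livers, Fst, Inhbb, Inhba, Tgfb2 and Tgfb3 were higher than in METTL3-Flox livers. Levels were compared on log2(FPKM + 0.1) over 16645 genes with limma, two-sided, and p-values were adjusted by the Benjamini-Hochberg method over all of them. These 5 of 10 genes had an adjusted p under 0.05, against 9.05% of all genes tested. For 4 of them, all but Inhba, the log2 fold change was also at least 1, against 4.70% of all genes. Tgfb2 is in both counts but entered the test only through METTL3-HKD livers, and without it they were 4 and 3 of 9 genes. No member was lower at an adjusted p under 0.05 with limma, or with voom on the rebuilt reads, against 6.63% of all genes. At an unadjusted p under 0.05, 6 members were higher and 2 were lower (Inhbc and Bmp2). In either direction, 5305 of the 16645 genes tested met that threshold. The median log2 fold change of the 10 genes was 0.77, against −0.00 over all genes tested. The METTL3-HKD livers all lay above the METTL3-Flox livers in 5 members (12.7% of all genes) and below them in 1 member, Inhbc (9.95% of all genes). Tgfb2 is also among these 5 members and among the 6 higher at the unadjusted threshold, and its value enters the median of 0.77.
Inhbb and Fst kept an adjusted p under 0.05 whichever liver was left out, and the other calls did not. The count of higher members was 2 without METTL3-HKD liver 1, 2 or 4 or METTL3-Flox liver 2 or 4, 3 without METTL3-Flox liver 3, 4 without METTL3-Flox liver 1 and 6 without METTL3-HKD liver 3. With no minimum on FPKM, which took 54532 genes into the fit, no member passed the threshold (limma, adjusted p of Fst 0.0620 and of Inhbb 0.143). When each liver was scaled to its reads on genes, the median of all genes moved to 0.19, the share of higher genes among all calls rose from 57.7% to 86.0%, and 6 members were higher, with Smad7 added. All 10 members kept their direction with that scaling.

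**Figure D1:**
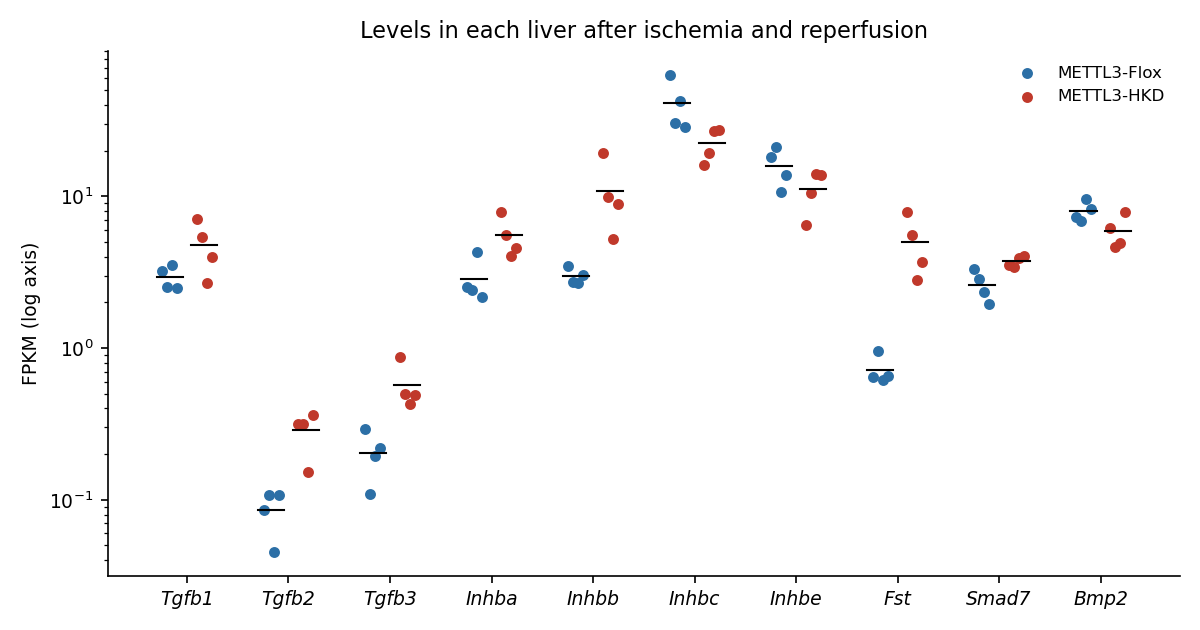
FPKM of the 10 genes on a log axis, with one point per liver (blue, METTL3-Flox; red, METTL3-HKD; n = 4 each) and a black line at each group mean. The red points lie wholly above the blue ones for Tgfb2, Tgfb3, Inhbb, Fst and Smad7, and wholly below them for Inhbc.

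Inhbb, the activin βB subunit, was higher in METTL3-HKD mice. It lies on the minus strand of chromosome 1 (GRCm38) from 119415465 to 119422248 (ENSMUSG00000037035). Its level was 19.4, 9.86, 5.22 and 8.91 FPKM in livers 1 to 4 of METTL3-HKD mice and 3.47, 2.71, 2.69 and 3.01 FPKM in livers 1 to 4 of METTL3-Flox mice. The lowest METTL3-HKD liver, liver 3, was above the highest METTL3-Flox liver, and liver 1 stood far above the rest. Means were 10.8 ± 6.04 FPKM and 2.97 ± 0.366 FPKM (SD, n = 4 each), a ratio of 3.65. The log2 fold change was 1.69 (limma, standard error 0.330, adjusted p 0.0137), and the exact permutation test of the FPKM gave p = 0.0286, the smallest that 4 livers against 4 allow. It was 1.36 without METTL3-HKD liver 1 (limma, adjusted p = 0.0139), and the adjusted p was at most 0.0437 with any liver left out.
Inhba, the activin βA subunit, was also higher, by a smaller fold. It lies on the plus strand of chromosome 13 from 16011851 to 16031621 (ENSMUSG00000041324). METTL3-HKD livers 1 to 4 had 7.88, 5.57, 4.05 and 4.59 FPKM, and METTL3-Flox livers 1 to 4 had 2.52, 2.40, 4.29 and 2.18 FPKM. The groups overlapped because METTL3-Flox liver 3 was above METTL3-HKD liver 3. The log2 fold change was 0.94 (limma, standard error 0.254, adjusted p 0.0391) and the mean FPKM was 1.94-fold higher (exact permutation test, p = 0.0571). The adjusted p from limma was 0.0908, 0.0869 and 0.0580 without METTL3-HKD liver 1, 2 or 4, and 0.0752, 0.0932 and 0.0944 without METTL3-Flox liver 1, 2 or 4. It was also above 0.05 without the mean-variance trend (limma, adjusted p = 0.0608) and with array quality weights (limma, adjusted p = 0.0527).

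Inhbc and Inhbe, the subunits of activin C and activin E, had the highest means of the 10 genes in both groups and did not pass the threshold. They are neighbours on the minus strand of chromosome 10, Inhbc from 127356322 to 127370431 (ENSMUSG00000025405) and Inhbe from 127348857 to 127354411 (ENSMUSG00000047492). Inhbc was at 16.1, 19.3, 26.9 and 27.2 FPKM in livers 1 to 4 of METTL3-HKD mice and at 63.3, 30.4, 42.5 and 28.7 FPKM in livers 1 to 4 of METTL3-Flox mice. Every METTL3-HKD liver was below every METTL3-Flox liver, with a narrow gap. The log2 fold change of −0.84 (95% confidence interval −1.45 to −0.23) had an adjusted p of 0.0660 from limma, and the exact permutation test gave p = 0.0286. Of the exonic bases of Inhbc, 14.4% are shared with the antisense gene Gm47200, which was at a mean of 0.0845 FPKM in METTL3-HKD and 0.395 FPKM in METTL3-Flox mice.
For Inhbe the livers had 6.47, 10.5, 14.1 and 13.7 FPKM (METTL3-HKD 1 to 4) and 18.2, 21.0, 10.6 and 13.7 FPKM (METTL3-Flox 1 to 4). The groups overlapped, and the log2 fold change of −0.52 (95% confidence interval −1.16 to 0.13) was not past the threshold (limma, adjusted p = 0.243). The annotated start of Inhbe lies 2563 bases upstream of the RefSeq start, and the deposited length of 5319 bases includes that stretch, so its level per length depends on that choice.

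The share of Inhba and Inhbb in the activin subunit transcripts was larger in METTL3-HKD livers. Inhba and Inhbb together made up 54.7%, 34.1%, 18.4% and 24.8% of the summed FPKM of the 4 genes in livers 1 to 4 of METTL3-HKD mice. In METTL3-Flox livers 1 to 4 they made up 6.85%, 9.04%, 11.6% and 10.9%. All METTL3-HKD livers were above all METTL3-Flox livers, although liver 3 was much closer to them than liver 1. The summed FPKM of the 4 genes overlapped, with 45.3 to 54.4 in METTL3-HKD and 47.6 to 87.5 in METTL3-Flox livers. These shares are sums over selected genes and were not tested.

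**Figure D2:**
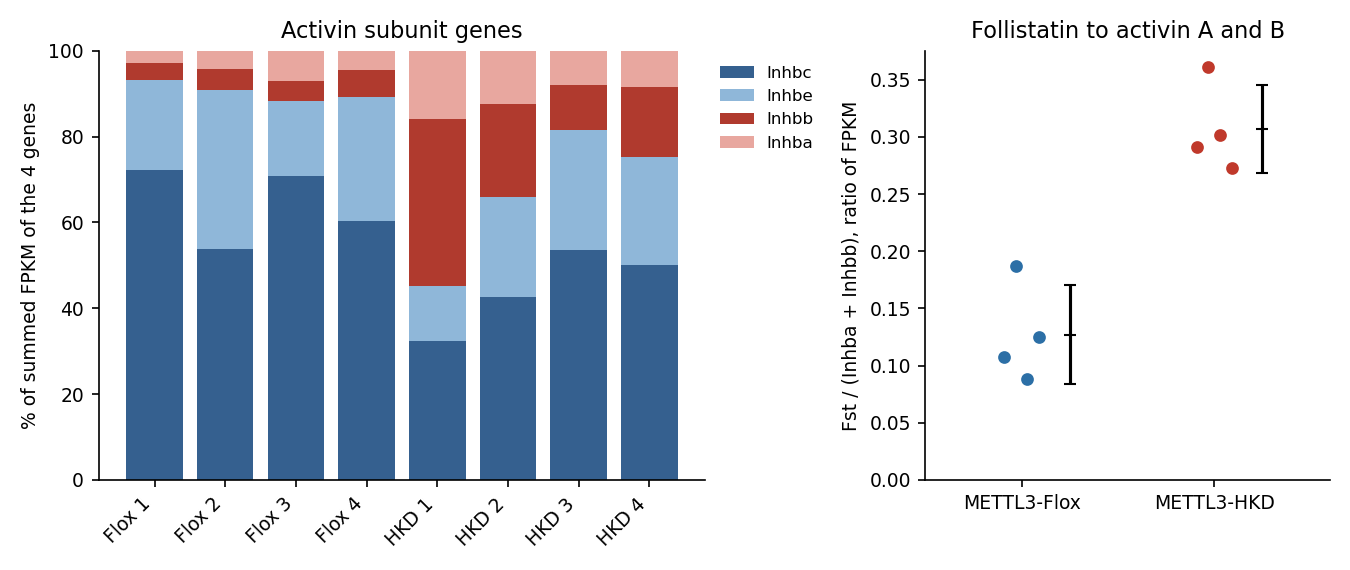
Left, share of each activin subunit gene in their summed FPKM, one bar per liver. Right, ratio of Fst FPKM to summed Inhba and Inhbb FPKM, one point per liver with the mean ± SD (n = 4). The red segments (Inhba and Inhbb) reach 54.7% in METTL3-HKD liver 1 and at most 11.6% in METTL3-Flox livers, and the ratio is 0.273 or more in METTL3-HKD and 0.187 or less in METTL3-Flox livers.

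Fst, which encodes the activin-binding protein follistatin, changed most among the 10 genes. It lies on the minus strand of chromosome 13 from 114452290 to 114458951 (ENSMUSG00000021765). Its level was 7.93, 5.58, 2.80 and 3.68 FPKM in livers 1 to 4 of METTL3-HKD mice and 0.644, 0.958, 0.616 and 0.650 FPKM in livers 1 to 4 of METTL3-Flox mice. The groups were well apart, and among METTL3-Flox livers liver 2 was somewhat above the others. Of its exonic bases, 115 are shared with the antisense gene Gm47040, which was at a mean of 0.173 FPKM in METTL3-HKD and 0.0291 FPKM in METTL3-Flox mice. Mean Fst was 5.0 ± 2.3 FPKM and 0.72 ± 0.16 FPKM (SD, n = 4 each), a ratio of 6.97. On the log2 scale the difference in Fst was 2.55 (standard error 0.300; limma, adjusted p = 0.00315; exact permutation test, p = 0.0286), with a range of 2.30 to 2.79 when single livers were left out. Behind the Fst values were 232 to 732 reads in each METTL3-HKD library and 42 to 71 in each METTL3-Flox library.
The ratio of Fst to the ligands it binds was also larger, as a description without a test. The ratio of its FPKM to the summed FPKM of Inhba and Inhbb was 0.291, 0.362, 0.302 and 0.273 in livers 1 to 4 of METTL3-HKD mice and 0.107, 0.187, 0.0883 and 0.125 in livers 1 to 4 of METTL3-Flox mice, a comparison of transcripts and not of proteins.

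The TGF-β isoforms differed in level, and whether their changes differed was not tested. Tgfb1 made up 82.2% to 86.9% of the summed FPKM of the 3 genes in METTL3-HKD livers and 88.4% to 93.6% in METTL3-Flox livers. Tgfb1 lies on the plus strand of chromosome 7 from 25687002 to 25705077 (ENSMUSG00000002603). It had 7.08, 5.40, 2.67 and 3.96 FPKM in livers 1 to 4 of METTL3-HKD mice and 3.24, 2.52, 3.51 and 2.50 FPKM in livers 1 to 4 of METTL3-Flox mice. METTL3-HKD livers 1, 2 and 4 were above all METTL3-Flox livers and liver 3 was among them. The log2 fold change of 0.61 (95% confidence interval −0.01 to 1.23) was not past the threshold (limma, adjusted p = 0.162; exact permutation test, p = 0.114). Without METTL3-HKD liver 3 it was 0.85 and passed (limma, adjusted p = 0.0318).
The low-level isoforms Tgfb3 and Tgfb2 passed the threshold. Tgfb3, on the minus strand of chromosome 12 from 86056745 to 86079041 (ENSMUSG00000021253), had 0.867, 0.496, 0.425 and 0.493 FPKM in livers 1 to 4 of METTL3-HKD mice and 0.291, 0.110, 0.194 and 0.220 FPKM in livers 1 to 4 of METTL3-Flox mice. Its groups did not overlap, with a log2 fold change of 1.13 (limma, standard error 0.281, adjusted p 0.0295). The size depended on the pseudocount: the ratio of mean FPKM was 2.80, and the log2 fold change was 0.38 with a pseudocount of 1 FPKM and 1.48 with voom. Its read counts were low, with 26 to 59 in METTL3-HKD and 6 to 14 in METTL3-Flox libraries. It lost the threshold without METTL3-HKD liver 1, 2 or 4 (limma, adjusted p = 0.0768, 0.0618 and 0.0553) and without METTL3-Flox liver 2, 3 or 4 (limma, adjusted p = 0.0667, 0.0716 and 0.0595). Tgfb3 overlaps Ttll5, which runs on the opposite strand and shares no exonic base with it. Of the exonic bases of Tgfb3, 257 and 163 are shared with Gm48008 and Gm37804, both listed at 0 FPKM.
Tgfb2, on the minus strand of chromosome 1 from 186622792 to 186705989 (ENSMUSG00000039239), had 0.318, 0.318, 0.153 and 0.362 FPKM in livers 1 to 4 of METTL3-HKD mice and 0.0851, 0.107, 0.0454 and 0.107 FPKM in livers 1 to 4 of METTL3-Flox mice. The groups did not overlap, with a log2 fold change of 1.04 (limma, standard error 0.295, adjusted p 0.0455). Its mean in METTL3-Flox mice, 0.0862 FPKM, was under the minimum of 0.1 FPKM, so Tgfb2 entered the test through METTL3-HKD livers. Its read counts were low, with 16 to 39 in METTL3-HKD and 4 to 10 in METTL3-Flox libraries, and the fold is understated by the pseudocount. Of its exonic bases, 124 are shared with the antisense gene Gm29491, at a mean of 0.129 FPKM in METTL3-HKD livers and listed at 0 in METTL3-Flox livers. The adjusted p rose above 0.05 with 7 of the 8 livers left out in turn, all but METTL3-HKD liver 3, and was 0.0691 to 0.117 in those fits (limma).

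**Figure D3:**
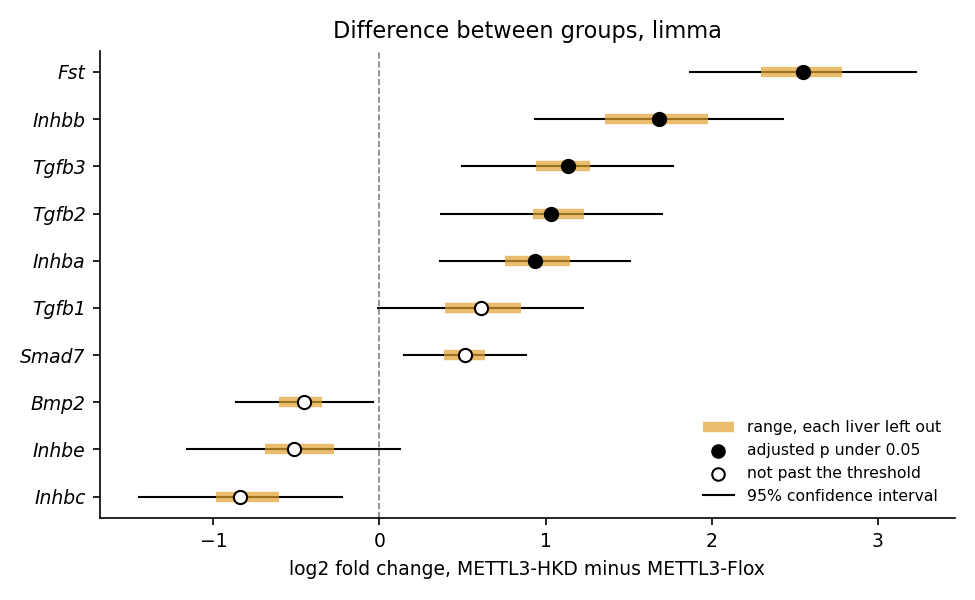
Log2 fold change of each gene (METTL3-HKD minus METTL3-Flox, limma on log2(FPKM + 0.1)), with the 95% confidence interval as a line, the range with each liver left out in turn as a thick bar, and filled points for an adjusted p under 0.05. Fst (2.55) and Inhbb (1.69) lie farthest to the right, and Inhbc, Inhbe and Bmp2 lie to the left of 0.

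Smad7, which is induced by TGF-β and limits it, lay slightly higher in METTL3-HKD livers without passing the threshold. It had 3.52, 3.41, 3.91 and 4.06 FPKM in livers 1 to 4 of METTL3-HKD mice and 3.33, 2.83, 2.36 and 1.95 FPKM in livers 1 to 4 of METTL3-Flox mice (ENSMUSG00000025880). The groups were apart by a narrow gap, and METTL3-HKD livers were much alike. The log2 fold change of 0.52 (95% confidence interval 0.15 to 0.88) was just short of the threshold (limma, adjusted p = 0.0614; exact permutation test, p = 0.0286). It passed with 5 of 17 alternatives, among them voom on the rebuilt reads (adjusted p = 0.0457), scaling to the reads on genes (limma, adjusted p = 0.0108) and the omission of METTL3-Flox liver 1 (limma, adjusted p = 0.0275).
Bmp2, on the plus strand of chromosome 2 from 133552159 to 133562885 (ENSMUSG00000027358), had 6.20, 4.61, 4.91 and 7.93 FPKM in livers 1 to 4 of METTL3-HKD mice and 7.28, 6.88, 9.66 and 8.27 FPKM in livers 1 to 4 of METTL3-Flox mice. METTL3-HKD liver 4 lay among the METTL3-Flox livers and the other METTL3-HKD livers below them. The log2 fold change of −0.45 (95% confidence interval −0.87 to −0.04) was not past the threshold (limma, adjusted p = 0.123; exact permutation test, p = 0.0857). Without METTL3-HKD liver 4 it was −0.60 (limma, adjusted p = 0.0462). Markers of the sinusoidal endothelium had a summed level of 45.2 to 49.5 FPKM in METTL3-HKD and 51.5 to 61.6 FPKM in METTL3-Flox livers, with 1 of 5 (Oit3) lower by limma, and their part in the level of Bmp2 was not tested.

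By level per length, the order in METTL3-Flox livers began with Inhbc, Inhbe and Bmp2, whose ranges did not overlap. Inhbb, Tgfb1, Inhba and Smad7 followed with overlapping ranges between 1.95 and 4.29 FPKM, and Fst, Tgfb3 and Tgfb2 came last, each below the one before. In METTL3-HKD livers Inhbc again had the highest mean. Its range overlapped that of Inhbb, which was above it in METTL3-HKD liver 1 (19.4 against 16.1 FPKM). Inhbe, Inhbb, Bmp2, Inhba, Fst, Tgfb1 and Smad7 followed, and each overlapped with the next. Fst thus lay below Smad7 in every METTL3-Flox liver but had a higher mean than Smad7 in METTL3-HKD livers, where their ranges overlapped.

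Some of the genes shared an order among the METTL3-HKD livers. Tgfb1, Tgfb3, Inhba, Inhbb and Fst, 5 of the 10 genes, were highest in liver 1, followed by livers 2, 4 and 3, an order found in 8.31% of all genes tested. This order was picked because the largest number of the 10 genes shared it, which favours a high count, and no test was made. The other 5 genes had 5 different orders, and Tgfb2, Inhbc, Smad7 and Bmp2 were highest in liver 4. Inhbc and Inhbe were lowest in liver 1. The summed hepatocyte markers were also lowest in liver 1, with 22121, 23916, 30700 and 32545 FPKM in livers 1 to 4. The neutrophil markers were highest there, with 1595, 376, 327 and 540 FPKM. The monocyte-derived macrophage markers had 285, 123, 106 and 99.0 FPKM in livers 1 to 4 of METTL3-HKD mice. Their sum was 44.5 to 71.3 FPKM in METTL3-Flox livers. By limma, 2 of 5 rose in METTL3-HKD mice (Ccr2 and Chil3). Lyz2, which made up most of the sum, did not pass (limma, adjusted p = 0.0542). Ly6c2 and Adgre1, with log2 fold changes of 1.27 and −0.68, did not pass either. The stellate cell markers had 27.9 to 41.1 FPKM against 34.2 to 76.1 FPKM, with Des higher and Lrat and Colec11 lower by limma. The platelet markers had 3.10 to 10.3 FPKM against 1.07 to 3.32 FPKM, with Ppbp higher and Gp1bb listed at 0 in all livers. The bile duct markers had 7.79 to 13.9 FPKM against 3.19 to 6.10 FPKM, with 3 of 4 higher. The part of these cells in the levels of the 10 genes was not tested.

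The genes whose levels were most like those of the called members over the 8 livers were taken by Pearson's r of log2(FPKM + 0.1) among the 10694 genes that averaged 1 FPKM or more. This is a description of 8 livers that share the difference between groups. For Inhbb they were Col4a1 (r = 0.995), a chain of basement membrane collagen, Cdc42se1 (r = 0.995) and Pgs1 (r = 0.993). For Fst they were Sema4d (r = 0.992), Slc2a1 (r = 0.991), which encodes the glucose transporter GLUT1, and Tpm4 (r = 0.991). For Tgfb3 they were Retnlg (r = 0.989), a neutrophil marker, Arhgdia (r = 0.985) and Ncf4 (r = 0.982), a subunit of the phagocyte oxidase. For Inhba they were Fam111a (r = 0.979), I830127L07Rik (r = 0.978) and Atad2b (r = 0.975), and for Tgfb2 Slc36a4 (r = 0.985), Dnajb6 (r = 0.980) and Dpm2 (r = 0.980). With the group means removed, r lay between 0.912 and 0.989 for these 15 genes. They were picked by the highest r over the same livers, which favours such values, so this is no separate evidence.

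The other genes of the pathway were grouped by role into 8 lists with 83 genes. Of the 66 tested, 13 were higher and 1 was lower at an adjusted p under 0.05 with limma, against 9.05% higher and 6.63% lower among all genes tested. The median log2 fold change was 0.32, against −0.00 over all genes. The lists were chosen with earlier results of these livers known. Without METTL3-HKD liver 1 the count of higher genes was 6, and without METTL3-HKD liver 2 or 4 or METTL3-Flox liver 3 it was 8.
Of 8 tested genes that hold or release latent TGF-β, Thbs1 and Itgav were higher (list median 0.45 on the log2 scale). Thbs1 encodes thrombospondin 1, an activator of latent TGF-β, and had 179, 32.9, 20.4 and 63.0 FPKM in livers 1 to 4 of METTL3-HKD mice and 0.127, 1.89, 1.03 and 0.286 FPKM in livers 1 to 4 of METTL3-Flox mice. METTL3-HKD liver 1 was by far the highest, and every METTL3-HKD liver was above every METTL3-Flox liver (log2 fold change 6.30, standard error 0.805, adjusted p = 0.00378 from limma). Itgav, the αv chain of integrins that bind latent TGF-β, averaged 5.90 ± 1.31 FPKM in METTL3-HKD and 2.75 ± 0.479 FPKM in METTL3-Flox mice (SD, n = 4 each), and passed with a difference of 1.06 on the log2 scale (limma, adjusted p = 0.0102). Of its partner chains only Itgb6 and Itgb8 were in the lists, and their means over all livers were below the minimum of 0.1 FPKM. Itgb8 averaged 0.122 FPKM in METTL3-HKD and 0.0582 FPKM in METTL3-Flox mice.
Among receptors, Tgfbr1 and Tgfbr2, which bind TGF-β, were higher by small amounts, 2 of 11 tested (list median 0.17). Tgfbr1 averaged 7.47 ± 0.255 FPKM in METTL3-HKD and 5.58 ± 0.669 FPKM in METTL3-Flox mice (SD, n = 4 each), a log2 difference of 0.42 (limma, adjusted p = 0.0305), and that of Tgfbr2 was 0.69 (limma, adjusted p = 0.0386). The activin receptors Acvr1b, Acvr2a and Acvr2b stood at 0.14, 0.17 and −0.60 on the log2 scale and did not pass. Among 7 other Smad genes, Smad4, the shared partner, and Smad5, a BMP Smad, were higher, with log2 fold changes of 0.32 and 0.39 (limma, adjusted p = 0.0396 and 0.0195; list median 0.18). Smad2 and Smad3, which carry TGF-β and activin signals, had −0.04 and 0.62 and did not pass. Smad4 lost the threshold whichever liver was left out. Tgfbr1 lost it without any 1 METTL3-HKD liver or METTL3-Flox liver 3 or 4, and Tgfbr2 without METTL3-HKD liver 1, 2 or 4 or METTL3-Flox liver 1, 2 or 3. All 3 also lost it without the mean-variance trend, and Smad5 lost it without METTL3-HKD liver 1 or 2 or METTL3-Flox liver 3.
Intracellular brakes on the pathway were higher in 3 of 7 cases (list median 0.40). Pmepa1 averaged 1.76 ± 0.231 FPKM in METTL3-HKD and 0.680 ± 0.134 FPKM in METTL3-Flox mice (SD, n = 4 each), a log2 difference of 1.26 (limma, adjusted p = 0.00428). Tgif1 and Skil had log2 fold changes of 1.37 and 0.82 (limma, adjusted p = 0.0111 and 0.0176), and Skil lost the threshold without METTL3-HKD liver 1. Ski and the ubiquitin ligases Smurf1 and Smurf2 did not pass. Of 5 other extracellular antagonists tested, the BMP antagonist Chrd was lower, at 0.799 ± 0.0984 FPKM in METTL3-HKD and 1.34 ± 0.201 FPKM in METTL3-Flox mice (SD, n = 4 each), a log2 difference of −0.68 (limma, adjusted p = 0.0240; list median −0.24). When each liver was scaled to its reads on genes, Chrd was at −0.48 and no longer passed (limma, adjusted p = 0.0770), nor did it without METTL3-HKD liver 1, 2 or 4 or METTL3-Flox liver 3 or 4. Fstl3, a relative of follistatin, had a log2 fold change of 0.94 and did not pass.
Of 9 TGF-β target genes, 2 were higher (list median 0.80). Ctgf and Tgfbi, which encode matrix-associated proteins, had log2 fold changes of 1.43 and 0.80 (limma, adjusted p = 0.0261 and 0.0311), and both lost the threshold without METTL3-HKD liver 1 or 4 or METTL3-Flox liver 2, 3 or 4, as Tgfbi did without METTL3-HKD liver 2 or without the mean-variance trend. The collagen genes Col1a1, Col1a2 and Col3a1 had log2 fold changes of 0.82, 0.13 and 0.80, and none passed. Acta2, Timp1, Cdkn2b and Fn1 had 1.95, 1.59, 0.63 and −0.25 and did not pass either. Of 6 BMP target genes, Id1 was higher (log2 fold change 1.65, adjusted p = 0.0115 from limma, list median 0.29), and Hamp, which encodes hepcidin, was at 1369 ± 958 FPKM in METTL3-HKD and 967 ± 369 FPKM in METTL3-Flox mice (SD, n = 4 each), with a log2 fold change of 0.24 that did not pass. Thbs1, Ctgf and Id1 are known to respond to other signals as well. Among 13 other ligands tested, Gdf15, a stress-induced member of the superfamily, was higher, at 10.2 ± 3.44 FPKM in METTL3-HKD and 2.50 ± 1.51 FPKM in METTL3-Flox mice (SD, n = 4 each), a log2 difference of 2.15 (limma, adjusted p = 0.0157; list median 0.35). Gdf2, which encodes BMP9, was at 5.6 ± 1.9 FPKM in METTL3-HKD and 9.0 ± 1.2 FPKM in METTL3-Flox mice (SD, n = 4 each) and did not pass (limma, log2 fold change −0.73, adjusted p = 0.0511).

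**Figure D4:**
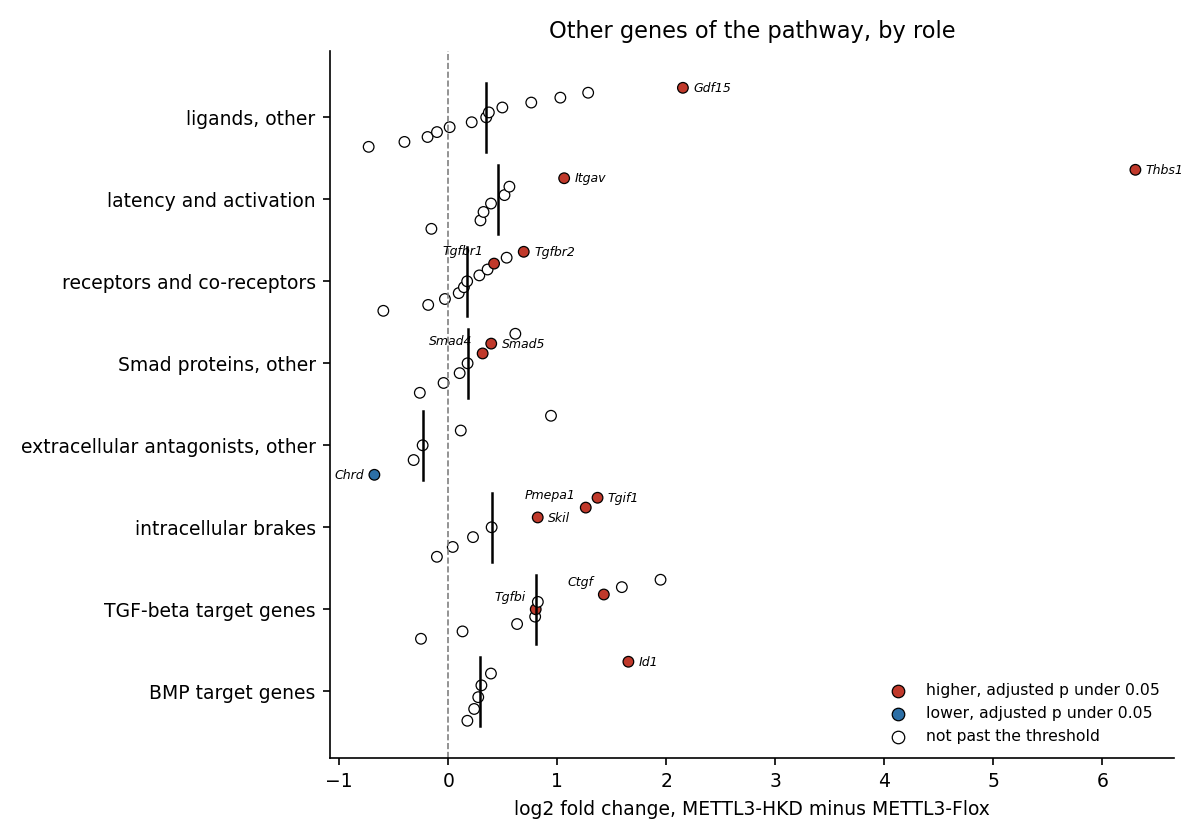
Log2 fold change (METTL3-HKD minus METTL3-Flox, limma) of the other tested genes of the pathway, one point per gene and one row per list, with black lines at list medians. Red points are higher and blue points lower at an adjusted p under 0.05, with Thbs1 (6.30) and Gdf15 (2.15) farthest to the right and Chrd (−0.68) the blue point.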

How the data were processed

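Liver mRNA of 4 METTL3-HKD and 4 METTL3-Flox mice was sequenced, with libraries made by a SMARTER mRNA-Seq kit. The authors deposited FPKM per gene, together with the gene length used and coordinates on GRCm38 (mm10). Their aligner, counting, annotation and strand setting are not given in the sources used here, so reads of a gene and its antisense partner cannot be told apart. All 10 genes had the same coordinates in GENCODE M21. The symbols of 27 rows had been turned into dates and were restored by identifier.

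FPKM times gene length were whole multiples of a single step per liver (100% of non-zero values within 0.01), so reads were rebuilt, giving 15861245 to 18434488 per liver. Effective library sizes differed from reads on genes, so the deposited values were already scaled between livers. Genes averaging 0.1 FPKM or more were tested on log2(FPKM + 0.1) with limma 3.58.1 (mean-variance trend, Benjamini-Hochberg) in R 4.3.3. Exact permutation tests of single genes, two-sided, used all 70 arrangements (scipy 1.17.1). Intervals from the fit are 95% confidence intervals. The method was also run on simulated data, and the outcome is not given here. The genes changed there all had higher mean reads than Tgfb2 and Tgfb3, so the recovery of changes in genes this low was not checked. No 2 libraries were identical, and nothing states how the mice were assigned to replicate numbers.

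The members, lists and motifs were chosen with earlier results of these data known, and 1 gene of the lists is not reported here. Genes named are the members, Mettl3, pathway genes past the threshold, cell type markers and, as a description, the 3 genes most like each called member. Pathway genes named without passing were chosen after their values were seen. Alternatives were a pseudocount of 1 FPKM, a minimum of 1 FPKM or none, median-of-ratios scaling, scaling to the reads on genes, no trend, array weights, voom on the rebuilt reads, a replicate block, and each liver left out. Promoters are from RefSeq.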

Additional observations from a re-analysis of the deposited data

Results flagged for a closer look

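In each group of 4 livers, a liver was examined when its gap to the nearest other liver exceeded Dixon's 95% critical value as a share of the group's range. Of 48 groups of values (24 genes in 2 groups), 4 had such a liver, where chance gives about 1 in 20. Tgfb3 was at 0.867 FPKM in METTL3-HKD liver 1 and at 0.425 to 0.496 FPKM in the other METTL3-HKD livers. Inhba was at 4.29 FPKM in METTL3-Flox liver 3 and at 2.18 to 2.52 FPKM in the other METTL3-Flox livers. Fst was at 0.958 FPKM in METTL3-Flox liver 2 and at 0.616 to 0.650 FPKM in the others. Tgfbr1 was at 4.59 FPKM in METTL3-Flox liver 1 and at 5.84 to 6.02 FPKM in the others.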

How the results depend on the processing

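All 10 members and the 14 called pathway genes kept their direction under all 17 alternatives in which they were tested. Mettl3, which was not called, turned from −0.16 to 0.0474 on the log2 scale with scaling to the reads on genes. Inhbb and Fst passed in 16 of 17 alternatives, all but no minimum, and Inhbc and Inhbe in none. Among the 17, median-of-ratios scaling divided every liver by the same factor, 1.006, so it was no separate check. With no minimum, 0 members were higher, 0 passed both thresholds, 0 genes of the pathway lists were higher or lower, and over all genes 60 were higher, 38 of them at least 2-fold, and 31 lower. A pseudocount of 1 FPKM gave 2 members past both thresholds (Fst and Inhbb) and 317 such genes in all. A minimum of 1 FPKM, under which Tgfb2 and Tgfb3 were not tested, gave 2 such members, 450 such genes, and 2 lower pathway genes. Array weights and voom also gave 2 lower pathway genes, and scaling to the reads on genes gave 0, with 2303 higher and 374 lower genes in all. With the replicate block, 3 members (Fst, Inhbb and Tgfb3) were higher, Tgfbr1, Tgfbr2, Smad4 and Smad5 lost their calls, with 971 higher and 645 lower genes in all. Deviations of same-numbered livers from their group means correlated between −0.08 and 0.07, and METTL3-HKD livers 2, 3 and 4 each correlated better with another number. With so few livers, such correlations cannot decide whether a number marks a shared litter or day of surgery. The cause of the changes in calls was not tested.

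With each liver left out in turn, higher members numbered 2 to 6, lower members 0 to 1 and those past both thresholds 2 to 5. Higher pathway genes numbered 6 to 13 and lower ones 0 to 2. Over all genes, 747 to 1659 were higher, 492 to 960 of them at least 2-fold, and 355 to 1148 lower. Depth limits Tgfb2 and Tgfb3 most, with 4 to 14 reads per METTL3-Flox liver. Counts of reads cover counting error only, and p-values measure the spread between these livers.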
